A study of Mus musculus with 12 samples.

Results

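Endothelial gene expression was examined in mouse liver through 10 named marker genes of the 24421 genes of the table. Of these, 5 mark the endothelium of the liver sinusoids (Stab1, Stab2, Lyve1, Clec4g and Oit3) and 5 mark endothelium more widely or in larger vessels (Kdr, Pecam1, Cdh5, Vwf and Sox17). Male LiK and LiKM mice were killed at 4 months, and tissue free of tumour was taken from their livers. Each strain was kept on a normal diet, or from 5 weeks on one holding 0.06% ACR, the acyclic retinoid studied against liver cancer. The 4 groups were thus LiK on the normal diet, LiK on ACR, LiKM on the normal diet and LiKM on ACR, with 3 separate mice and 3 libraries in each. The labels name the strains and give no allele, promoter or Cre driver. From what is known of the study, Mdm2, whose product marks p53 for degradation, is meant to be absent from hepatocytes of LiKM mice and present in those of LiK mice. The comparison of the strains asks how liver endothelial genes differ with that change in another cell type, and the comparison of diets how they differ with ACR.

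Liver sinusoids are lined by a specialised endothelium that is perforated, lacks an organised basement membrane and clears macromolecules from blood. Its scavenger receptors and lectins, among them the stabilins, set it apart from the continuous endothelium of arteries, veins and most capillaries. VEGF made by neighbouring cells acts through the receptor Kdr and is known to maintain this state. When sinusoids lose it, which is called capillarisation, sinusoidal genes are known to decline while genes of continuous endothelium rise.

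Libraries held 10124813 to 18647156 counts. The label of liver was met by hepatocyte markers, since a list of 10 of them summed to between 91977 and 170691 CPM (counts scaled to a common library size by TMM factors) in every library. Mdm2 was at 21.6 to 25.8 CPM in LiK and at 29.0 to 67.2 CPM in LiKM. A count over the whole gene does not separate a deleted exon from the rest of the transcript, so it does not check the strain. All 10 endothelial genes had counts in all 12 libraries and passed the filter on low counts, which kept 13880 genes. These are bulk samples, in which fewer cells of a type and less RNA per cell cannot be told apart. LiK normal diet mouse 1 was the lowest of the 12 for 5 of the 10 genes (Stab1, Stab2, Oit3, Pecam1 and Cdh5), and LiK ACR mouse 3 was the highest for 5 (Stab2, Clec4g, Oit3, Kdr and Cdh5).

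Promoter sequences were found in the RefSeq table (build GRCm38.p6) for 4 of the 10 genes, namely Stab1, Stab2, Clec4g and Kdr. Those of Stab2 and Kdr are shown because these genes had the most similar levels across the libraries of all pairs of the 10, and that of Stab1 because it is the paralogue of Stab2. Each runs 5′ to 3′ on the minus strand from 250 bases before the gene's start in RefSeq to 50 bases after it, and the RefSeq start of Stab2 lies inside the span that GENCODE gives the gene. Capitals mark GGAA, the core that ETS factors of endothelium bind, and TTCC, which is the same core on the other strand.
Stab2, chr10:87007893-87008192: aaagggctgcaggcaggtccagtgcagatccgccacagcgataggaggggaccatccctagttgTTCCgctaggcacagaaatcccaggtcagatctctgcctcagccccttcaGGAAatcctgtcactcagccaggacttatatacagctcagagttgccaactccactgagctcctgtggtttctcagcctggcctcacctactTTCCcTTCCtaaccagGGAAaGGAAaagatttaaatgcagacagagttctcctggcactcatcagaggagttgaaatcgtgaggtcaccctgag
Stab1, chr14:31168592-31168891: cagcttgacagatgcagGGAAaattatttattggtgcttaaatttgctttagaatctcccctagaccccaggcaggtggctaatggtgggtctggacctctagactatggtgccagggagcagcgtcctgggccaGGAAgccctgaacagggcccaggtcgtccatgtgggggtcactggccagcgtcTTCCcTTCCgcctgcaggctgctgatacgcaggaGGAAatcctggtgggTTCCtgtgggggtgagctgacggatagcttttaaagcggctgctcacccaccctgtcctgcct
Kdr, chr5:75978406-75978705: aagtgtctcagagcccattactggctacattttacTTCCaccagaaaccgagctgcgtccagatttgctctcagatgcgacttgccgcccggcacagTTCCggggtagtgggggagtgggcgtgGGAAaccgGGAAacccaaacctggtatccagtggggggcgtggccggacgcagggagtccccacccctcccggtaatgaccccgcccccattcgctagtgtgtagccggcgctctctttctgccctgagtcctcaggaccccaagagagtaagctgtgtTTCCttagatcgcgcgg
Counting both strands, the Stab2 and Stab1 promoters each held 6 copies and the Kdr and Clec4g promoters 5. GGAA is present in 96% of the 32851 promoters in the table, with a median of 3 copies, and 28.6% hold 5 or more and 15.7% hold 6 or more. Of GATA sites, only the form GATAA was searched, on both strands. It is in 25.4% of promoters and was not found in these 4 windows. GATA followed by another letter was not searched, and GATA itself, read on either strand, does occur in the Stab2, Stab1 and Kdr windows above. A match describes the letters of a window and does not show a bound site.

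Divided by exon length, the sinusoidal lectin Clec4g had the highest level of the 10 genes, at 18.8 ± 2.69 CPM per kilobase (mean ± SD over the 12 libraries). Oit3 followed at 9.13 ± 1.79, and its range did not reach that of Clec4g. Cdh5 (6.72 ± 1.33), Stab2 (6.64 ± 1.33) and Stab1 (6.05 ± 1.00) came next and did not differ beyond their spread. Kdr was at 4.86 ± 1.10, Lyve1 at 3.91 ± 1.69 and Pecam1 at 2.92 ± 0.663, so that each lay within the spread of its neighbour in the order. Vwf (0.730 ± 0.192) and Sox17 (0.492 ± 0.165), the genes of larger vessels, were lowest, their ranges overlapped each other and neither reached that of Pecam1. Across the 12 libraries Lyve1 varied most, with a coefficient of variation of 43.3% in CPM, followed by Sox17 at 33.5% and Vwf at 26.3%, and Clec4g least at 14.3%.

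**Figure D1:**
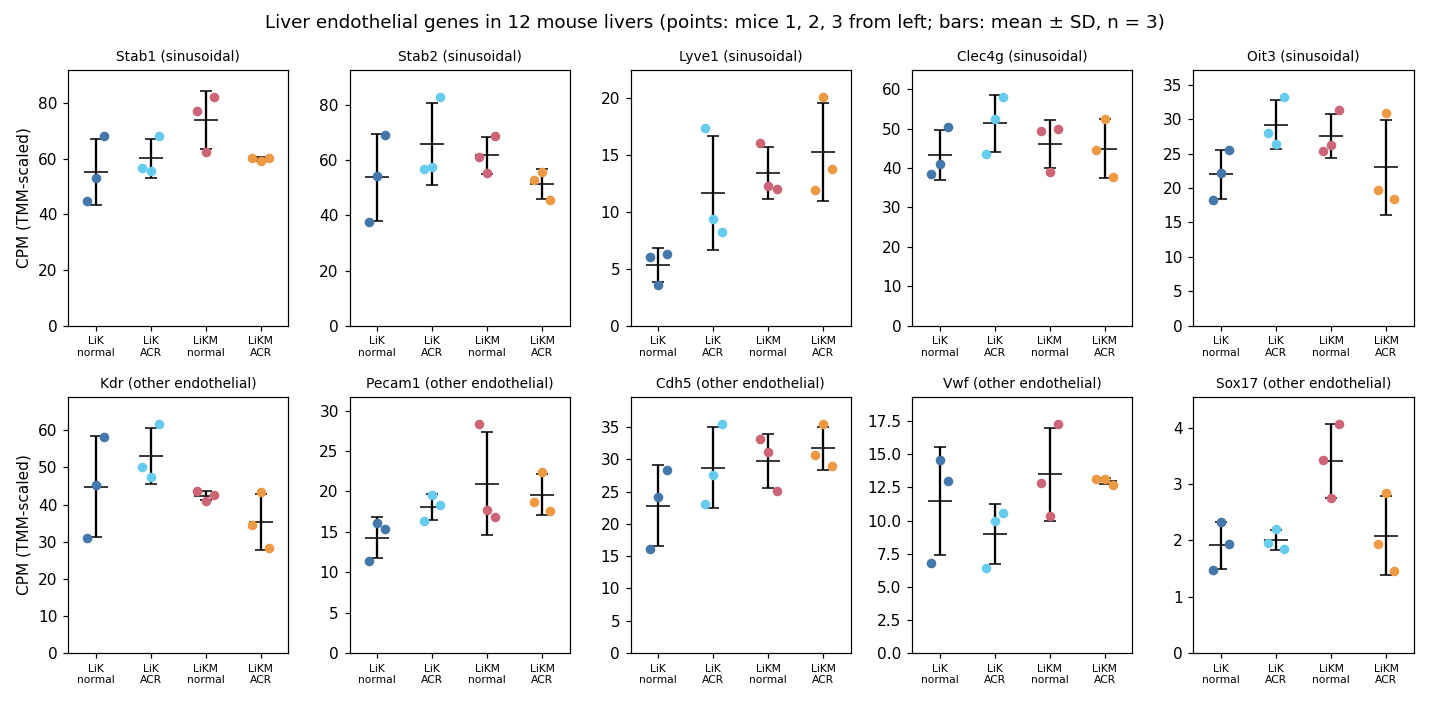
CPM of the 10 genes in each of the 12 livers, by group; points are mice 1, 2 and 3 from left to right and bars are mean ± SD (n = 3). Lyve1 lies between 3.62 and 6.28 CPM in the LiK livers without ACR and at 8.23 CPM or more in every other liver, while the groups of most other genes overlap.

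Stab1 and Stab2 are scavenger receptors of the sinusoid, and Stab2 clears hyaluronan from blood. Stab1 (chromosome 14, 31139013 to 31168641, minus strand, mm10) was at 44.8, 53.1 and 68.0 CPM in LiK mice 1, 2 and 3 without ACR and at 56.5, 55.5 and 68.2 with it. LiKM mice 1, 2 and 3 held 77.3, 62.3 and 82.1 CPM without ACR and 60.3, 59.1 and 60.3 with it. LiKM livers on the normal diet therefore held the highest values, but LiKM mouse 2 lay below LiK mouse 3. Stab1 overlaps Nt5dc2 on the other strand and its deposited values are not whole in 8 of the 12 libraries, so its level is uncertain. Stab2 (chromosome 10, 86841198 to 87008025, minus strand) was at 37.8, 54.3 and 69.0 CPM in LiK without ACR and at 56.9, 57.5 and 82.8 with it. LiKM livers had 61.1, 55.4 and 68.7 CPM without ACR and 52.8, 55.7 and 45.5 with it. All 3 LiKM livers on ACR were below all LiK livers on ACR, and the groups on the normal diet overlapped. Stab2 overlaps predicted genes on the other strand, and the strand setting of the counting is not stated in the sources used.

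Lyve1, a hyaluronan receptor of sinusoidal and lymphatic endothelium that some macrophages also carry, lies on chromosome 7 (110850607 to 110863239, minus strand). Its level in LiK was 6.06, 3.62 and 6.28 CPM without ACR, from 64 to 86 counts a library, and 17.4, 9.39 and 8.23 CPM with it. Its level in LiKM was 16.1, 12.3 and 12.01 CPM without ACR and 11.9, 20.1 and 13.7 with it. The LiK livers on the normal diet were the lowest 3 of the 12, and the other 3 groups overlapped one another. Clec4g, a lectin of the sinusoid (chromosome 8, 3707064 to 3720651, minus strand), ranged from 37.7 to 58.0 CPM over the 12 livers. Oit3, a secreted protein whose transcript is a marker of sinusoidal endothelium (chromosome 10, 59422958 to 59441778, minus strand), ranged from 18.3 to 33.2 CPM. For both, LiK ACR mouse 3 was highest, and only the Oit3 values of the LiK diets were separate, at 18.3, 22.2 and 25.5 CPM without ACR against 27.98, 26.4 and 33.2 with it.

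Kdr encodes the main signalling receptor for VEGF (chromosome 5, 75932827 to 75978458, minus strand). LiK livers held 30.9, 45.2 and 58.2 CPM of Kdr without ACR and 50.04, 47.4 and 61.6 with it. In the LiKM strain there were 43.6, 41.1 and 42.5 CPM without ACR and 34.6, 43.3 and 28.2 with it. The strains overlapped on the normal diet, where LiK livers spanned a wide range, and were separate on ACR, with every LiKM liver lower. Pecam1 encodes a junctional adhesion molecule shared by endothelium, platelets and leukocytes (chromosome 11, 106654217 to 106750628, minus strand). It was at 11.3, 16.1 and 15.4 CPM in LiK without ACR and at 16.3, 19.5 and 18.3 with it. Values of 28.3, 17.7 and 16.9 CPM were found in LiKM without ACR and 18.7, 22.4 and 17.6 with it. LiKM mouse 1 on the normal diet stood above the rest.

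Cdh5, or VE-cadherin, holds endothelial cells together at their junctions (chromosome 8, 104101625 to 104144511, plus strand). LiK values were 16.1, 24.1 and 28.3 CPM without ACR and 23.1, 27.6 and 35.4 with it. LiKM values were 33.1, 31.1 and 25.1 CPM without ACR and 30.7, 35.4 and 29.0 with it. The groups overlapped in every comparison. Vwf, the clotting glycoprotein stored by endothelium of larger vessels and by platelets (chromosome 6, 125546774 to 125686679, plus strand), ranged from 6.42 to 17.3 CPM. On ACR its LiKM values of 13.1, 13.2 and 12.7 CPM lay above the LiK values of 6.42, 9.99 and 10.6. Sox17, a transcription factor of arterial endothelium (chromosome 1, 4490931 to 4497354, minus strand), was the scarcest of the 10, with 21 to 57 counts a library. It was at 3.42, 2.75 and 4.06 CPM in LiKM on the normal diet against 1.48, 2.32 and 1.93 in LiK, with no overlap, and between 1.46 and 2.85 CPM in both strains on ACR.

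The strains were first compared on the normal diet. There Lyve1 rose in LiKM, from 5.32 ± 1.48 to 13.5 ± 2.28 CPM (mean ± SD, n = 3), and it alone of the 10 genes passed the test. Its log2 fold change was 1.35 (SE 0.32, 95% confidence interval 0.66 to 2.05), or 2.55-fold, with an adjusted p of 0.0125 by edgeR's quasi-likelihood test. Over 21 alternative settings Lyve1 passed in 20, with adjusted p by edgeR or DESeq2 from 8.67e-04 to 0.0519. The exception was a term for the prefix of the identifier in the labels, with which the log2 fold change was 1.19. LiK normal diet mice 2 and 3 and LiKM ACR mouse 3 carry the prefix MP and all others KM, and the labels do not say what it stands for. Among KM animals the 1 LiK liver on the normal diet had 6.06 CPM of Lyve1, below all 3 LiKM livers. Against this 1 call in 10, 21.8% of all genes tested passed in the comparison, 13.2% of all upward and 8.61% downward, so a single call among the 10 was not above the background share.

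The other 9 genes gave log2 values that the spread between mice did not separate from 0 at the adjusted threshold. Sox17 was at 0.82 (95% interval 0.21 to 1.44, adjusted p = 0.0570), Pecam1 at 0.56 (0.12 to 1.00, adjusted p = 0.0690) and Stab1 at 0.42 (0.08 to 0.75, adjusted p = 0.0707), all by edgeR. These 3 lay close to the threshold and passed it in 3, 4 and 5 of the 21 alternatives. With a replicate block within LiKM, where mouse numbers deviated together, Pecam1 passed at 0.53, and its adjusted p by edgeR or DESeq2 ranged from 0.00630 to 0.284 over the alternatives. Cdh5 was at 0.39 (interval -0.06 to 0.84), Oit3 at 0.33 (-0.10 to 0.75), Vwf at 0.23 (-0.37 to 0.83), Stab2 at 0.20 (-0.25 to 0.65) and Clec4g at 0.09 (-0.26 to 0.44). Kdr was the 1 gene below 0, at -0.08 (-0.54 to 0.38), and at 0.31 when libraries were scaled by their size alone. The median of the 10 genes was 0.36 against 0.02 for all genes tested, and 3 of the 10 had every LiKM liver above every LiK liver (Lyve1, Pecam1 and Sox17), where 20.7% of all genes did (19.4% were lower without overlap).

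The size of these differences depended on the scaling. Without TMM factors the median of all genes moved from 0.02 to 0.40 on the log2 scale, and 97.6% of called genes were higher in LiKM against 60.6% with them. Of the 10 endothelial genes 7 passed, where 34% of all genes tested were called higher. Set against that shifted median, Clec4g at 0.49 lay just above it, Kdr at 0.31 below it and Stab1 at 0.82 above it. Hepatocyte transcripts moved in the same comparison, with summed marker levels of 121200 to 170691 CPM in LiK and 91977 to 104400 CPM in LiKM, and their part in the scaling was not tested.

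**Figure D2:**
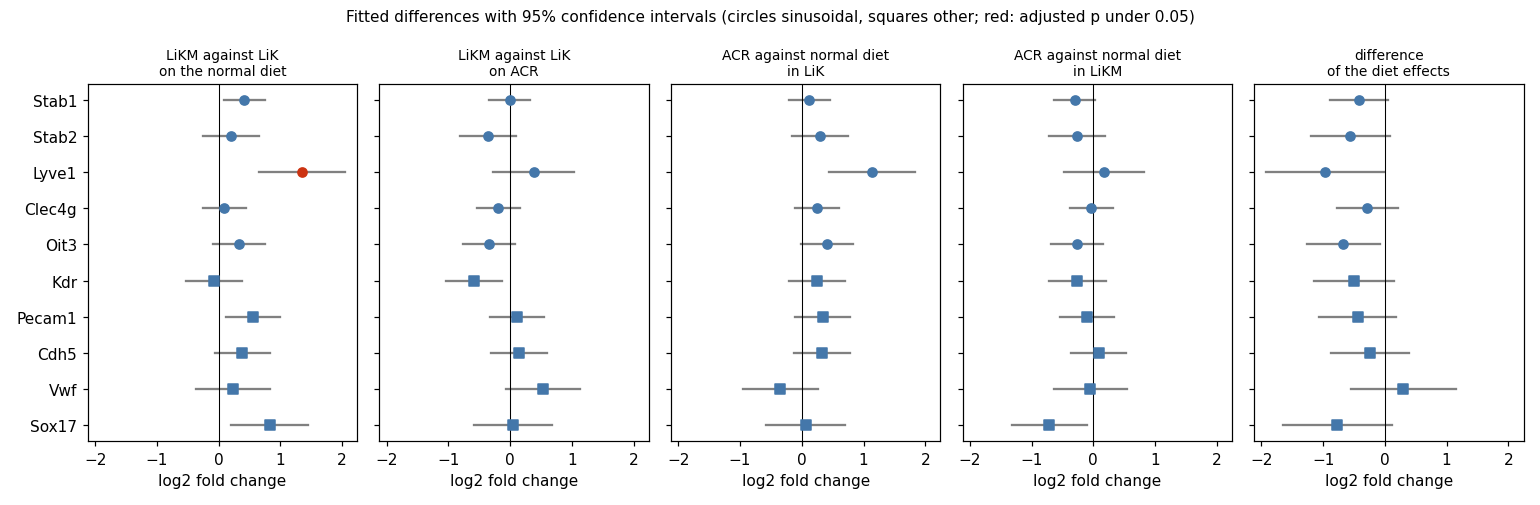
Log2 fold changes of the 10 genes in the 5 comparisons with 95% confidence intervals; circles are sinusoidal and squares other endothelial genes, and red marks an adjusted p under 0.05. Only Lyve1 in LiKM against LiK on the normal diet (1.35) is red, and 9 of 10 genes lie below 0 in the difference of the diet effects.

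On ACR none of the 10 genes passed the edgeR test between the strains, where 9.79% of all genes did (5.55% upward and 4.24% downward). At an unadjusted p under 0.05 there was 1 (Kdr), where 27.6% of all genes were, and DESeq2 called 0. Kdr was at 53.0 ± 7.55 CPM in LiK and 35.4 ± 7.57 CPM in LiKM, a log2 fold change of -0.58 (95% interval -1.04 to -0.13, adjusted p = 0.0960 by edgeR, range over 21 alternatives 0.0495 to 0.258). It passed in 1 alternative, without LiK normal diet mouse 1, which enters through the shared estimate of the spread. Stab2 was at -0.36 (-0.81 to 0.09) and Vwf at 0.53 (-0.07 to 1.13). In these 3 genes the livers of the strains did not overlap, Kdr and Stab2 lower and Vwf higher in LiKM, against 16% of all genes lower and 17.2% higher. Lyve1 was at 0.38 (-0.27 to 1.04). The median of the 10 genes was 0.02, the same to 2 decimals as that of all genes. Without TMM factors 77.9% of called genes were higher in LiKM against 56.7% with them.

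The diets were then compared within each strain. In LiK none of the 10 genes passed, where 0.195% of all genes did (27 genes, 0.13% upward and 0.0648% downward). Of the 10 genes 1 was under an unadjusted p of 0.05, as were 14.1% of all genes, and DESeq2 called 1, beside 393 of all genes. That gene was Lyve1, at 5.32 ± 1.48 CPM without ACR and 11.7 ± 4.98 on ACR. Its log2 fold change was 1.14 (95% interval 0.45 to 1.84, adjusted p = 0.153 by edgeR), with every ACR liver higher. DESeq2 gave 1.15 with an adjusted p of 0.0308, the lowest over the alternatives, whose highest was 0.392. The value was 0.74 without LiK ACR mouse 1, which at 17.4 CPM stood above the other 2. Oit3 at 0.41 (-0.01 to 0.83) and Pecam1 at 0.34 (-0.11 to 0.78) were also higher in every ACR liver, so that 3 of the 10 genes did not overlap, where 13.4% of all genes were higher and 14.6% lower without overlap. Of the 10 genes 9 lay above 0, and Vwf was at -0.35 (-0.96 to 0.25). The comparison shares its LiK normal diet livers, among them mouse 1, with the strain comparison on the normal diet, so that the 2 sets of values are not independent.

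In LiKM none of the 10 genes passed between the diets and none of all genes did (0%). For all genes, 1005 were under an unadjusted p of 0.05 by edgeR and DESeq2 called 70, and for the 10 genes these counts were 1 and 0. Sox17 had the lowest p of the 10, at 3.41 ± 0.655 CPM without ACR and 2.08 ± 0.704 on ACR, a log2 value of -0.71 (-1.33 to -0.10, adjusted p = 0.578 by edgeR). Stab1 was at -0.30 (-0.64 to 0.03) with every ACR liver lower, the 1 gene of the 10 without overlap, where 6.7% of all genes were lower and 3.94% higher without overlap. Lyve1 was at 0.17 (-0.48 to 0.83). Of the 10 genes 8 lay below 0 and the median was -0.18, against -0.01 for all genes. With a replicate block within LiKM, 9 of all genes passed and still none of the 10.

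The difference of the diet effects, LiKM minus LiK, was tested as an interaction. None of the 10 genes passed and 0.0072% of all genes did (1 gene). Of the 10 genes 2 were under an unadjusted p of 0.05, as were 11.5% of all genes, and DESeq2 called 0, beside 157 of all genes. Lyve1 was at -0.97 (95% interval -1.92 to -0.02, adjusted p = 0.432 by edgeR) and Oit3 at -0.67 (-1.27 to -0.07, adjusted p = 0.393 by edgeR). In 9 of 10 genes the value was below 0, Vwf being the other at 0.30 (-0.55 to 1.15), and the median was -0.47 against -0.02 for all genes. Without TMM factors the median of all genes was -0.29. The 10 genes were measured in the same livers, and LiK normal diet mouse 1 enters every value.

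The sinusoidal genes were set against the other endothelial genes by the difference of their mean log2 CPM in each library. Gene length adds a constant to this difference, so that it is compared between livers and not read as a level. For LiK it came to 1.37, 0.79 and 1.16 without ACR and 1.61, 1.23 and 1.35 with it. For LiKM it came to 1.13, 1.20 and 1.27 without ACR and 1.19, 1.26 and 1.30 with it. The LiKM livers lay close together in the middle of the LiK range, and the groups overlapped in every comparison. The change from LiK to LiKM was 0.09 on the normal diet and -0.15 on ACR, and that from the normal diet to ACR was 0.29 in LiK and 0.05 in LiKM. The pooled SDs between mice in these comparisons were 0.21, 0.14, 0.25 and 0.06. The changes of -0.15 and 0.29 were slightly larger than their SDs and the others smaller, and no test was run on them. Single livers weighed on these values, which ran from -0.07 (without LiK normal diet mouse 2) to 0.22 (without LiK normal diet mouse 1) between the strains without ACR, from -0.23 (without LiK ACR mouse 2) to -0.04 (without LiK ACR mouse 1) between them on ACR and from 0.13 (without LiK normal diet mouse 2) to 0.42 (without LiK normal diet mouse 1) between the diets in LiK. Within LiKM, where numbers were taken to pair mice, the same-numbered differences between the diets were 0.06, 0.06 and 0.03 (mean 0.05, SD 0.018), all above 0. That pairing was inferred from these same data and not from a label, and without it the LiKM livers of the diets overlapped. A decline of sinusoidal genes relative to the other endothelial genes was thus not tested between the strains. Their groups of 3 mice overlapped on both diets. The mean of the other set includes Kdr, which was itself lower in every LiKM liver on ACR (log2 -0.58). Both sets held values of either sign between the strains on ACR, none of which passed the test, and differences between single genes were not tested.

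**Figure D3:**
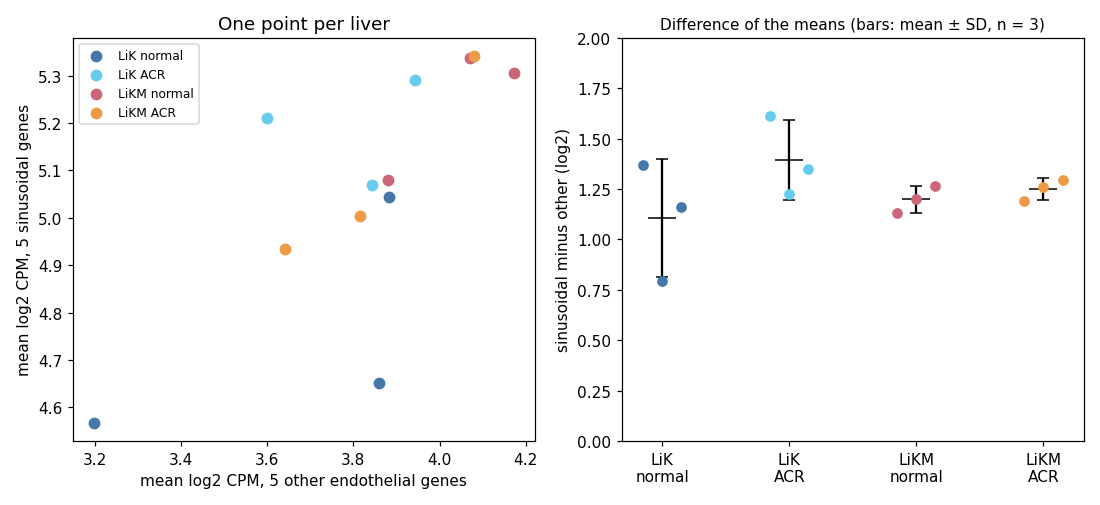
Left, mean log2 CPM of the 5 sinusoidal genes against that of the 5 other endothelial genes, 1 point per liver; right, their difference by group, with mean ± SD (n = 3). The difference lies between 1.13 and 1.30 in all 6 LiKM livers and between 0.79 and 1.61 in the LiK livers.

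Ratios of counts of a pair of genes within a library do not depend on how libraries are scaled. Overlap of a pair was judged by the difference of log2 CPM, which carries a prior count of 2. The prior is scaled with the library and weighs most on genes of low count, so the shares below can depend on scaling. Of the 45 pairs of the 10 genes, 2 had ratios that did not overlap between the 6 LiK and the 6 LiKM livers, or 4.44%, whereas 13.1% of the 96320260 pairs of all tested genes did so. The share was therefore below the background. Both pairs had Kdr over another gene of the other endothelial set, and they are named after their values were seen. Kdr over Cdh5 was 1.93, 1.88 and 2.06 in LiK without ACR and 2.17, 1.72 and 1.74 with it. In LiKM the ratio was 1.32, 1.32 and 1.69 without ACR and 1.13, 1.22 and 0.9747 with it. Every LiKM liver was thus below every LiK liver, with means of 1.28 ± 0.241 and 1.91 ± 0.176 (n = 6 each), although LiKM mouse 3 on the normal diet came close to the lowest LiK livers. Kdr over Sox17 was 19.5 to 33.3 in LiK and 10.5 to 19.3 in LiKM. A ratio shows unequal change of the pair and not which of them changed.

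None of the 25 ratios of a sinusoidal over another endothelial gene was separate between the strains over all 12 livers. Stab2 over Cdh5 was 2.09 to 2.47 in LiK and 1.57 to 2.73 in LiKM, where LiKM mouse 3 on the normal diet was the highest of all livers. Stab1 over Stab2, the ratio of the paralogues, was 0.824 to 1.19 in LiK and 1.06 to 1.32 in LiKM and overlapped. On ACR alone 12 of the 25 ratios did not overlap, 9 lower and 3 higher in LiKM, or 48%, where 34.2% of all gene pairs did not overlap. The 3 higher ones had Kdr below the line, and the 9 lower ones had Pecam1, Cdh5 or Vwf there. On the normal diet 7 of the 25 (28%) did not overlap, against 40.6% of all gene pairs. Ratios share their genes and are not independent.

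**Figure D4:**
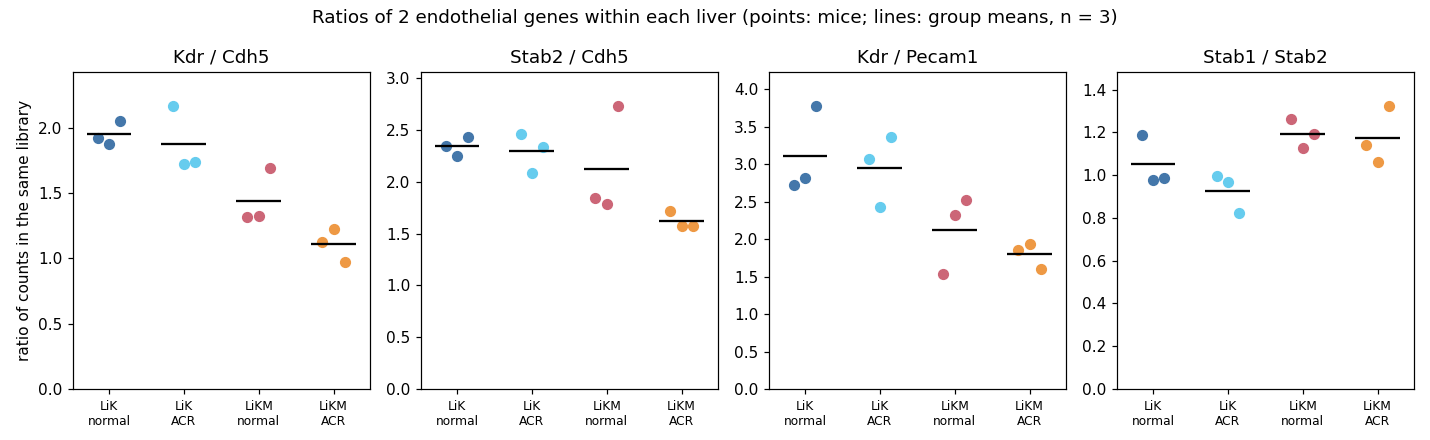
Ratio of the counts of a pair of genes within each library, by group; points are mice and lines are group means (n = 3). Kdr over Cdh5 is 1.72 or more in all LiK livers and 1.69 or less in all LiKM livers, while the other 3 ratios plotted overlap between the strains over all 12 livers.

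Levels of the 10 genes across the 12 libraries were compared by Pearson correlation of log2 CPM, given as a description of libraries that share groups, depth and cell makeup. Stab2 and Kdr had the highest value of the 45 pairs (r = 0.85 over 12 libraries, 0.91 after group means were removed). Stab2 was placed in the sinusoidal set and Kdr in the other set, whose genes mark endothelium more widely or in larger vessels. Stab2 also went with Oit3 (0.82) and Clec4g (0.80), and Pecam1 with Cdh5 (0.80). Lyve1 stood apart from the other sinusoidal genes, with 0.05 to Stab2, 0.15 to Clec4g and 0.36 to Stab1. Kdr and Cdh5 had r = 0.35 over the 12 libraries and 0.84 within groups. Among all tested genes with established names, the 5 most like Stab2 were Ppap2a (0.88), Slc9a9 (0.86), Kdr (0.85), Tspan7 (0.85) and Klf4 (0.84). The 5 most like Cdh5 were Abcg1 (0.94), Tlr7 (0.93), Dse (0.93), Ccdc148 (0.92) and Gimap4 (0.92), and no other of the 10 endothelial genes was among them.

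Further endothelial genes were read from lists of the same tissue. On the normal diet, 9 of 28 further pan-endothelial genes rose in LiKM and none fell, where 13.2% of all genes rose, and their median log2 fold change was 0.37. They were Ecscr, Esam, Fli1, Eng, Rasip1, Cav1, Sox18, Robo4 and Icam2. Ecscr, a surface protein of endothelium, was at 1.27 to 2.51 CPM in LiK and 4.72 to 6.52 in LiKM (log2 1.34, SE 0.26, adjusted p = 0.00481 by edgeR). Esam, a tight-junction molecule, was at 7.07 to 9.13 CPM in LiK and 11.1 to 13.9 in LiKM (log2 0.66, SE 0.15, adjusted p = 0.0121 by edgeR). Fli1, an ETS factor, was at 1.76 to 2.77 and 3.96 to 5.14 CPM (log2 1.01, SE 0.25, adjusted p = 0.0161 by edgeR). The count of 9 moved when single livers were left out, as did the 1836 of all genes called higher. Without LiK normal diet mouse 1, LiK normal diet mouse 3 or LiKM normal diet mouse 3, 1106, 1246 and 1434 of all genes were called higher. The count for the list was 1, 4 and 3 in the same order. It was 4 without 3 LiKM livers whose clock genes stood apart in earlier results (normal diet mouse 3 and ACR mice 2 and 3) and 5 with only these groups fitted.

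Genes of capillary, arterial and large-vessel endothelium were the list with the largest median of the 5 endothelial lists on the normal diet, at 1.15, and 7 of the 16 that passed the filter rose, where 13.2% of all genes did (4 more, Sele, Aplnr, Apln and Bmx, were too low to test). They were Unc5b, Sema3g, Esm1, Edn1, Efnb2, Gja5 and Vcam1. Unc5b, a netrin receptor of sprouting and arterial endothelium, was at 7.54 to 9.51 CPM in LiK and 18.8 to 31.3 in LiKM (log2 1.64, SE 0.28, adjusted p = 0.00294 by edgeR). Esm1, a secreted proteoglycan of tip cells, was at 0.251 to 1.06 CPM in LiK and 3.02 to 7.62 in LiKM (log2 2.97, SE 0.60, adjusted p = 0.00630 by edgeR). Sema3g, an arterial semaphorin, had 0 to 2 counts a library in LiK and 18 to 23 in LiKM (adjusted p = 0.00543 by edgeR). Sema3g passed the filter on low counts through LiKM livers alone, so its place among the 7 depends on the strain in which it is high. The count of 7 was between 5 and 9 when any 1 liver was left out, 4 with the term for the identifier prefix and 14 without TMM factors, where 34% of all genes were called higher.

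Of 19 further sinusoidal genes, 1 rose on the normal diet, a share below the 13.2% of all genes, and the median of the list was 0.09. It was Flt4, the receptor for Vegfc in sinusoidal and lymphatic endothelium, at 22.1 to 30.9 CPM in LiK and 40.5 to 61.2 in LiKM (log2 1.00, SE 0.19, adjusted p = 0.00476 by edgeR). The count for this list was 3 with a replicate block within LiKM and 2 without LiK mouse 1 or LiKM mouse 1. It was 6 without TMM factors, where 34% of all genes were called higher. Among 12 VEGF and angiopoietin genes, Flt4 and Angpt1, the ligand of Tek, rose. Angpt1 was at 0.509 to 1.20 CPM in LiK and 3.18 to 5.65 in LiKM (log2 2.60, SE 0.47, adjusted p = 0.00349 by edgeR). Among 12 signals from endothelium to hepatocytes, Dkk3, of the family of Wnt inhibitors, rose from 0.775 to 2.15 CPM in LiK to 3.02 to 10.02 in LiKM (log2 2.24, SE 0.44, adjusted p = 0.00546 by edgeR), and the count of that list was 3 without LiK mouse 2 and 2 without LiKM mouse 3.

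On ACR the strains differed in few of these genes, and the counts stand beside 5.55% of all genes higher and 4.24% lower. Pan-endothelial genes had a median of -0.06, and 1 of 28 rose, S1pr1, a receptor for sphingosine 1-phosphate, at 39.0 to 48.0 CPM in LiK and 59.9 to 71.7 in LiKM. The capillary and arterial list had a median of 0.46 with 1 rise of 16, that of Sema3g, at 0 to 1 counts in LiK and 3 to 21 in LiKM. As said above, Sema3g was tested only because of its counts in LiKM. Of the sinusoidal list, Nr2f2, a transcription factor of venous endothelium, fell, the 1 change of 19. It was at 29.0 to 37.1 CPM in LiK and 20.4 to 23.5 in LiKM, and the count was 0 without TMM factors. Dkk3 rose again, at 1.33 to 1.66 CPM in LiK and 4.54 to 7.26 in LiKM. In the VEGF list the ligand Vegfc rose, from 2.86 to 3.32 CPM to 4.20 to 6.10, and Nrp2, a coreceptor, fell, from 14.7 to 26.6 CPM to 12.1 to 14.1. The adjusted p-values by edgeR were 0.0360 for S1pr1, 0.0170 for Sema3g, 0.0253 for Nr2f2, 0.0163 for Dkk3, 0.0470 for Vegfc and 0.0453 for Nrp2. Leaving out 1 liver at a time, these counts ran from 0 to 2 of the pan-endothelial genes, 0 to 4 of the capillary and arterial genes, 0 to 1 of the sinusoidal genes, 0 to 1 of the signals and 0 to 2 of the VEGF genes. Over the same removals 312 to 1695 of all genes were called, against 1359 with all livers. The capillary and arterial count was 4 without LiKM normal diet mouse 3, 2 without LiK normal diet mouse 2 or LiKM normal diet mouse 1, and 0 without LiK ACR mouse 1 or 2. The pan-endothelial count was 2 without LiK normal diet mouse 2. The pan-endothelial and sinusoidal counts were 0 without LiK ACR mouse 1 or 2 or LiKM ACR mouse 1 or 2, and the pan-endothelial count was also 0 without LiK normal diet mouse 3 or mouse 3 of either strain on ACR. The signals count was 0 without LiK ACR mouse 2 or 3. The VEGF count was below 2 without any 1 liver other than LiKM normal diet mouse 3. Whether a list's strain difference itself changed with diet was tested only gene by gene, through the interaction.

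Between the diets, no gene of these 5 lists passed the edgeR test in either strain or in the interaction. At an unadjusted p under 0.05 the pan-endothelial list held 5 of 28 genes in LiK, 1 in LiKM and 5 in the interaction, and the further sinusoidal list held 5, 3 and 4 of 19. The shares of all genes were 14.1%, 7.24% and 11.5%. DESeq2 called 1 sinusoidal gene and 1 capillary or arterial gene in LiK, none in LiKM and 1 sinusoidal gene in the interaction. With the replicate block within LiKM the sinusoidal counts were 1 in LiK and 2 in the interaction. Without LiKM normal diet mouse 1 they were 1 and 1, and without LiKM normal diet mouse 3 the count in LiK was 1. In LiKM 26 of 28 pan-endothelial genes lay below 0 on ACR, with a median of -0.17, against -0.01 for all genes.

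**Figure D5:**
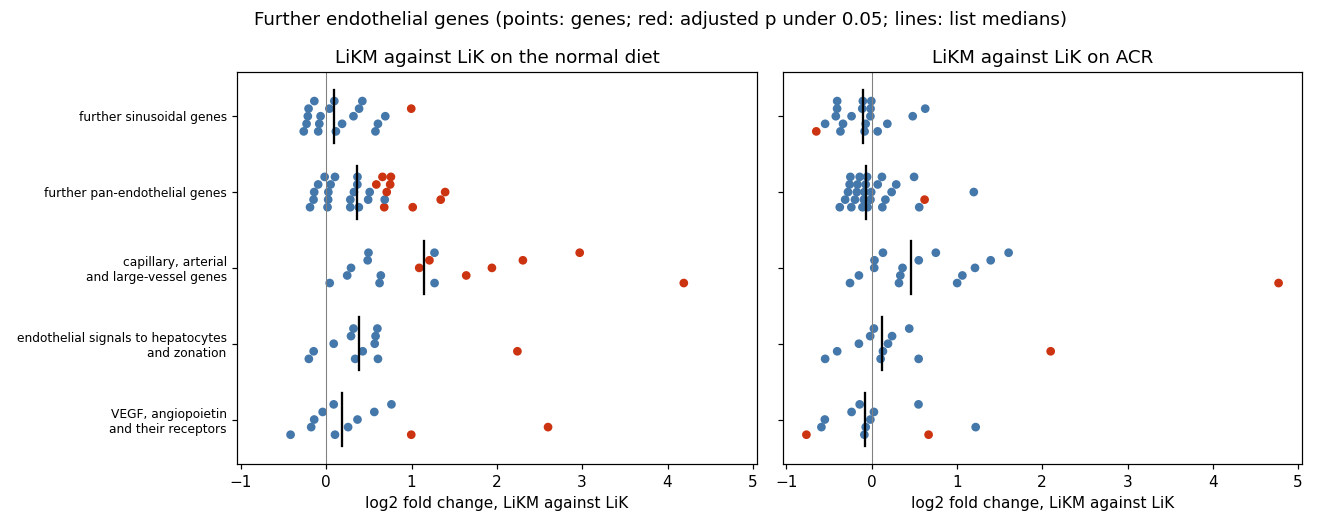
Log2 fold changes of LiKM against LiK for the genes of 5 further endothelial lists, on the normal diet (left) and on ACR (right); each point is a gene, red marks an adjusted p under 0.05 and lines are list medians. The median of the capillary, arterial and large-vessel list is 1.15 on the normal diet and 0.46 on ACR.

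Markers of other cells that can carry these transcripts were read beside them. Of 10 recruited leukocyte markers 7 rose in LiKM on the normal diet and 5 on ACR, where 13.2% and 5.55% of all genes did. On the normal diet the count was 4 without LiK mouse 3 or LiKM mouse 2, and on ACR it was 0 without LiK mouse 2, 1 without LiK mouse 1 and 2 without LiK mouse 3 or any 1 LiKM mouse on ACR. Their summed level was 9.02 to 25.7 CPM in LiK without ACR, 23.4 to 36.6 in LiK with it, 55.2 to 67.6 in LiKM without ACR and 62.9 to 79.3 in LiKM with it. The marker Cd8a, at 0 to 7 counts in LiK and 20 to 50 in LiKM on the normal diet, passed the filter through LiKM livers alone. Any call of Cd8a therefore depends on the strain in which it is high. Ptprc, the common leukocyte antigen, was at 4.93 to 10.4 CPM in LiK and 22.3 to 24.2 in LiKM on the normal diet. These cells carry Pecam1, and their part in its values was not tested.

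Of 10 Kupffer cell markers 1, the complement gene C1qb, rose on the normal diet and 2, C1qa and C1qb, rose on ACR, counts that ran from 0 to 2 in both comparisons when 1 liver was left out. On the normal diet it was 0 without LiK mouse 1 or 3 or LiKM mouse 2, and on ACR it was 2 only with all livers or without LiK normal diet mouse 1 or 2 or LiKM normal diet mouse 3, 1 without LiK ACR mouse 3 or LiKM normal diet mouse 2, and 0 without any other 1 liver. Their summed level was 174.8 to 329.5 CPM in LiK without ACR, 249.9 to 504.4 in LiK with it, 228.6 to 431.7 in LiKM without ACR and 539.1 to 587.0 in LiKM with it. Its part in the Lyve1 values was not tested. Of 5 lymphatic endothelial markers, Flt4 rose on the normal diet and Ccl21a, at 0 to 4 counts in LiK and 11 to 12 in LiKM, on ACR, and the latter count was 0 without LiK ACR mouse 2 or 3, any 1 LiKM ACR mouse, LiK normal diet mouse 3 or LiKM normal diet mouse 2. Ccl21a passed the filter through LiKM livers alone, so its call depends on the strain in which it is high. The sums of the lymphatic list overlapped between all groups (134.8 to 250.9 CPM). Of 8 platelet and megakaryocyte markers, 3 could be tested and none passed by edgeR or DESeq2 in either strain comparison (1, Pf4, had an unadjusted p under 0.05 on the normal diet, and 1 marker passed by edgeR there without LiK normal diet mouse 2). The others were too low to test. The sum of the list was 3.95 to 7.71 CPM in LiK and 7.89 to 11.3 in LiKM on the normal diet, and its part in the Vwf values was not tested.

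All 10 cholangiocyte markers rose in LiKM on the normal diet and 9 on ACR (5 without LiK ACR mouse 2), where 13.2% and 5.55% of all genes did, with sums of 56.2 to 70.5 and 643.2 to 1097 CPM in LiK and LiKM on the normal diet. Of these at least Cftr, at 0 to 3 counts in LiK and 71 to 182 in LiKM there, passed the filter through LiKM livers alone. Its call thus depends on the strain in which it is high. Of 10 stellate cell markers 3 (Pdgfrb, Dcn and Des) rose on the normal diet, where 13.2% of all genes did. That count was 0 without LiK mouse 1 or 3 or LiKM mouse 1, 1 without LiKM mouse 2 and 5 without LiKM mouse 3. Of the hepatocyte markers Slc10a1, Serpina1a and Ttr fell on the normal diet, and Slc10a1 on ACR, where 8.61% and 4.24% of all genes fell. The first count was 1 without LiK mouse 3 and 5 without LiK mouse 2 or LiKM ACR mouse 3, and the second 0 without LiK ACR mouse 1 or 2 or LiKM ACR mouse 3. How far these shifts in other cells bear on the endothelial values was not tested.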

How the data were processed

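RNA from 12 mouse livers was sequenced from stranded mRNA libraries, per the labels. The deposited table holds expected counts, 1 value per gene symbol and library, and 18.9% of its values above 0 are not whole (tolerance 1e-09). Counting used featureCounts 2.0.0, with the build mm10, per the submitters' processing notes. For the aligner, annotation, strand setting and treatment of shared reads, nothing was given in the sources used here, so genes that overlap are uncertain. All 12 columns matched a title, which gave group and mouse, and 0 were left over. Libraries of a group differed beyond sampling noise (15.7 to 65.1 chi-square units per degree of freedom).

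Counts were rounded, filtered with filterByExpr by group (13880 of 24421 genes kept, 5382 at 0 throughout) and scaled by TMM factors (0.83 to 1.24) in edgeR 4.0.16 (R 4.3.3). The quasi-likelihood test was fitted on all 12 libraries with 1 coefficient per group and its p-values adjusted by Benjamini-Hochberg over all genes tested, with a threshold of 0.05, which "rose", "fell" and "passed" refer to. The biological coefficient of variation was 0.203. The test was checked on simulated counts. Log2 CPM values carry a prior count of 2. Confidence intervals of fold changes are 95% and come from the fit. Exon lengths and positions are from the GENCODE M21 annotation of mm10. Alternatives were RLE or no scaling factors, no filter, DESeq2 1.42.0, only the groups compared, replicate blocks, the identifier prefix, leaving out 3 libraries and leaving out each library.

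The 10 genes and the lists were chosen with earlier results of these data known. The text names all 10 genes, up to 3 genes of smallest p that passed from each further list and the 5 genes most like Stab2 and Cdh5, and gives others only as members of a count. As a check of pairing, deviations from group means were correlated across genes between mice of the same number. Between the LiKM diets it was 0.37, 0.22 and 0.48 for numbers 1, 2 and 3 and at most 0.07 for unlike numbers. Between other groups no set of same-numbered mice had all values over 0.1, so numbers were taken to pair mice within LiKM only, from the data and not from a label.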

Additional observations from a re-analysis of the deposited data

How the results depend on the processing

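Precision is limited by 3 mice a group, by counts of 21 to 57 for Sox17 and by LiK normal diet mouse 1, which was lowest for 5 genes. Counts of the 10 genes and of all genes past the threshold are given in this order of comparisons: strain on the normal diet, strain on ACR, diet in LiK, diet in LiKM, interaction.

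By scaling with library size alone, 7 of the 10 genes passed on the normal diet and 4831 of all genes, and 16 in the interaction. The sign changed for Kdr on the normal diet (0.31), Stab1 between strains on ACR (0.11) and Cdh5 between diets in LiKM (-0.0562). Without a filter 2 genes passed in the interaction. DESeq2 called 1 of the 10 genes in LiK and, of all genes, 2057 between strains on ACR, 393 in LiK, 70 in LiKM and 157 in the interaction. With only the groups compared, 812 genes passed between diets in LiK. The identifier prefix gave 16 genes in LiK and 0 in the interaction (by edgeR, against 1), and turned Kdr on the normal diet (0.0261), Sox17 between diets in LiK (-0.0124) and Vwf in the interaction (-0.19).

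With a replicate block over all groups, 2 of the 10 genes passed on the normal diet (Lyve1 and Stab1), 2 of all genes in the interaction, and Stab1 between strains on ACR was at 0.0046. With the replicate block within LiKM, 2 of the 10 genes passed on the normal diet (Lyve1 and Pecam1), and 2473 of all genes passed between strains on ACR, 701 in LiK, 9 in LiKM and 260 in the interaction. The blocks changed no other call among the 10 genes.

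Without LiKM normal diet mouse 3 and LiKM ACR mice 2 and 3, 2 of the 10 genes passed on the normal diet (Lyve1 and Pecam1), and 555 genes passed between strains on ACR, 624 in LiK, 1 in LiKM and 15 in the interaction. Signs changed for Vwf on the normal diet (-0.00760), Sox17 between strains on ACR (-0.0620), and Lyve1 (-0.24), Clec4g (0.0271), Cdh5 (-0.0514) and Vwf (0.19) between diets in LiKM.

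Leaving out each mouse gave 1 to 2 of the 10 genes on the normal diet, 0 to 1 between strains on ACR and 0 elsewhere. For all genes the counts were 1658 to 3384, 312 to 1695, 0 to 108, 0 to 5 and 0 to 20. Signs changed on the normal diet for Stab2 (-0.0012 to 0.42), Kdr (-0.29 to 0.15) and Vwf (-0.0409 to 0.45), and between strains on ACR for Stab1 (-0.0623 to 0.0805) and Sox17 (-0.24 to 0.25). Between diets they changed in LiK for Stab1 (-0.0093 to 0.30) and Sox17 (-0.0933 to 0.24), and in LiKM for Lyve1 (-0.0725 to 0.34), Clec4g (-0.16 to 0.10), Pecam1 (-0.23 to 0.20), Cdh5 (-0.0120 to 0.19) and Vwf (-0.21 to 0.17). None of these had passed the test. The cause of each change was not tested.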
